A study of Mus musculus with 12 samples.

Results

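The T cell receptor alpha variable segments were the rows of the count table whose mouse gene identifier was annotated as a T cell receptor variable gene with a symbol starting with Trav. There were 108 of them among 49315 rows, in 21 families, and all lay on the plus strand of chromosome 14 (GRCm38), between positions 52427928 and 53977678 and from 1792 to 242.8 kb before the constant region gene Trac. RNASeq libraries were made from T cells taken from the spleen by magnetic negative selection, in 4 groups of 3 mice with 1 library per mouse. The groups were wild-type (WT, miR-214+/+) and miR-214-/- male mice of 12 weeks that received vehicle (sham) or Ang II from minipumps, at a daily dose of 490 ng/kg over 14 days. The miR-214-/- mice lacked the microRNA in every cell, not in T cells alone, and both genotypes came from heterozygous parents on a mixed S129/C57 background. The Mir214 gene itself was at 0 counts in all 12 libraries, WT included, so these libraries of polyadenylated RNA do not check the genotype. Total counts were between 21126874 and 29605988 per library, of which the Trav segments together held between 3095 and 5013.

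Each developing T cell joins a Trav segment to a joining segment (Traj) with the RAG recombinase, and the joined exon is spliced to the constant region, Trac. The variable segment encodes the part of the alpha chain that helps to contact peptide and MHC, and a bulk count of a segment therefore reflects how many T cells use it and how much receptor RNA each cell holds. In bulk samples such as these, fewer cells using a segment and less RNA per cell cannot be told apart. The mouse locus holds repeated blocks, so many segments exist as a copy with no letter, a copy marked d and a copy marked n. Some segments, marked dv, can also be used by the delta chain, whose genes lie within the alpha locus.

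The coding parts of the V exons show why the copies matter for counting, because only reads that map to 1 place were counted. The sequences below are from the GENCODE transcripts of GRCm38, run 5′ to 3′ on the plus strand, and cover the first 300 bases at most. The first of each set is in lower case, and in the others capitals mark bases that differ from the first after alignment. The Trav14 set is shown because Trav14n-3 was called between groups. The stretches start at chromosome 14 positions 53370267 (Trav14n-3), 53763386 (Trav14-3) and 53078737 (Trav14d-3-dv8). Trav14-3 differed from Trav14n-3 by 6 substitutions over the 309 coding bases of the V exon (98.1% identity), and Trav14d-3-dv8 by 8 substitutions, 1 extra base and 1 missing base (96.8% identity). The extra and missing base depend on how the stretch was aligned, and substitutions alone would give the same identity.
Trav14n-3: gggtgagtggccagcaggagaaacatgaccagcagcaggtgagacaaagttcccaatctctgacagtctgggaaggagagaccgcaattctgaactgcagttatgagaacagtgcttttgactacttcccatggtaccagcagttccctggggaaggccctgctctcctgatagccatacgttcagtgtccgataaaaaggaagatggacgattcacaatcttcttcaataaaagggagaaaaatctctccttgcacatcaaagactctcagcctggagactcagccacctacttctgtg
Trav14-3: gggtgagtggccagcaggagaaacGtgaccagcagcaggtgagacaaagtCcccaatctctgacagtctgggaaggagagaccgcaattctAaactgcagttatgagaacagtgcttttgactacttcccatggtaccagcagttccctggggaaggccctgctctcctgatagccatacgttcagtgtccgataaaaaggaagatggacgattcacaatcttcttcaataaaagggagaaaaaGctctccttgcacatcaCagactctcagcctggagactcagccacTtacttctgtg
Trav14d-3-dv8: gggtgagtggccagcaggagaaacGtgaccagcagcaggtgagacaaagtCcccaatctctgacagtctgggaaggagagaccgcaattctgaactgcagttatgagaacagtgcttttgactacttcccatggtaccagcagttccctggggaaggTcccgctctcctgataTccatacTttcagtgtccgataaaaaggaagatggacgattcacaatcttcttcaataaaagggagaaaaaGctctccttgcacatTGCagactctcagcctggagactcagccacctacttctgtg

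The Trav6-5 set is shown for the same reason. It starts at positions 53491331 (Trav6-5), 52795342 (Trav6d-5) and 53105056 (Trav6n-5). Trav6n-5 had 1 substitution against Trav6-5, and its annotated coding part lacks the first 3 bases (98.6% identity). Trav6d-5 had 11 substitutions, 1 extra base and 1 missing base (95.5% identity), and here too substitutions alone would give the same identity.
Trav6-5: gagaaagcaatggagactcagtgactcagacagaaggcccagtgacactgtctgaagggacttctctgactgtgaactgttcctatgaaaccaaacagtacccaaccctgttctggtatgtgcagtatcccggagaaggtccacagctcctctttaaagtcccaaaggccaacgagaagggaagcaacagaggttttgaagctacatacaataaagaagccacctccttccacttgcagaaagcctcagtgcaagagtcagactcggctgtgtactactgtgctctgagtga
Trav6d-5: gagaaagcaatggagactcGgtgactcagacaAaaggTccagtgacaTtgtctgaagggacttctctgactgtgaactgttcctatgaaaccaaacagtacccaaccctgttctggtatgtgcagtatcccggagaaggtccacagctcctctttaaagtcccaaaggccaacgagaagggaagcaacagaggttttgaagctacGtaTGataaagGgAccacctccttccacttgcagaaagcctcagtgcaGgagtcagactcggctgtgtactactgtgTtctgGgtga
Trav6n-5: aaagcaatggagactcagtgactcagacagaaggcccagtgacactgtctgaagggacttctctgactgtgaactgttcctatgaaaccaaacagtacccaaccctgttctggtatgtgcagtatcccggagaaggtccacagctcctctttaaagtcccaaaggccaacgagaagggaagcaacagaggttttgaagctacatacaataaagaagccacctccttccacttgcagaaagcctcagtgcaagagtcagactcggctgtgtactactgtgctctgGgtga

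Trav6-7-dv9 and Trav6d-7 are shown because they had 1 count or less in different libraries, as described further on. They start at positions 53710128 and 53007807 and differed by 6 substitutions over 292 bases (97.9% identity).
Trav6-7-dv9: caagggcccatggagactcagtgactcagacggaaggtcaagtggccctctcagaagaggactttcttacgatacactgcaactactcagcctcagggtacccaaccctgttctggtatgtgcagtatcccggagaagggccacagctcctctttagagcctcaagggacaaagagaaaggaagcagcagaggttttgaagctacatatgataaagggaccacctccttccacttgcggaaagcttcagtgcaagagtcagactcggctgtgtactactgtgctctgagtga
Trav6d-7: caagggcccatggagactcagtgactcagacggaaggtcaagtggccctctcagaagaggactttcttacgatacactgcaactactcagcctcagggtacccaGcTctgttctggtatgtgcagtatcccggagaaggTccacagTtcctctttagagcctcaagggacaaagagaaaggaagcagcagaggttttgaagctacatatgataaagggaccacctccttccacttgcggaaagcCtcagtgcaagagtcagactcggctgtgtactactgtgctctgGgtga

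Trav11 and Trav11d carry the alpha chain of invariant NKT cells. They start at positions 53519569 and 52824623. Trav11d differed from Trav11 only in that its annotated coding part stops 1 base earlier (99.7% identity).
Trav11: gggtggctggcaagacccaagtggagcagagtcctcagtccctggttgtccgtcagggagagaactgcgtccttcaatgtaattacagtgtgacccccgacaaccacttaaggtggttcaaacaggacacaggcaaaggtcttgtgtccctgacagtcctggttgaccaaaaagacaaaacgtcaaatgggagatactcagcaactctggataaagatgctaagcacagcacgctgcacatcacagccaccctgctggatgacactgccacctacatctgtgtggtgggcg
Trav11d: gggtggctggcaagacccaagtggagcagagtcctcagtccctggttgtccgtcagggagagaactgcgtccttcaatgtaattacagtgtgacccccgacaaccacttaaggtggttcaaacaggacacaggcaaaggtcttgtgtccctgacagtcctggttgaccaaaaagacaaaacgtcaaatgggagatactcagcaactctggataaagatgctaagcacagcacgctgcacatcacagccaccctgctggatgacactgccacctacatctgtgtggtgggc

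Of the 108 segments, 34 had a V exon identical to that of another segment, 91 were at least 95% identical to their nearest segment and 10 were under 90%. Among the 34 segments whose every 100-base exon window was found in another Trav gene, the median of the mean count per library was 0.333, and 3 of 34 had a mean of at least 5 counts. Among the 19 segments that shared no window, the median was 53.8 counts, and 17 of 19 had a mean of at least 5. A low count in a copied segment is therefore a value for the reads that could be placed, not for the use of the segment. In all, 67 segments had a mean of at least 5 counts and 41 were under it. By copy class, 41 of 46 segments with no letter, 15 of 34 d copies and 11 of 28 n copies had a mean of at least 5 counts.

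**Figure D1:**
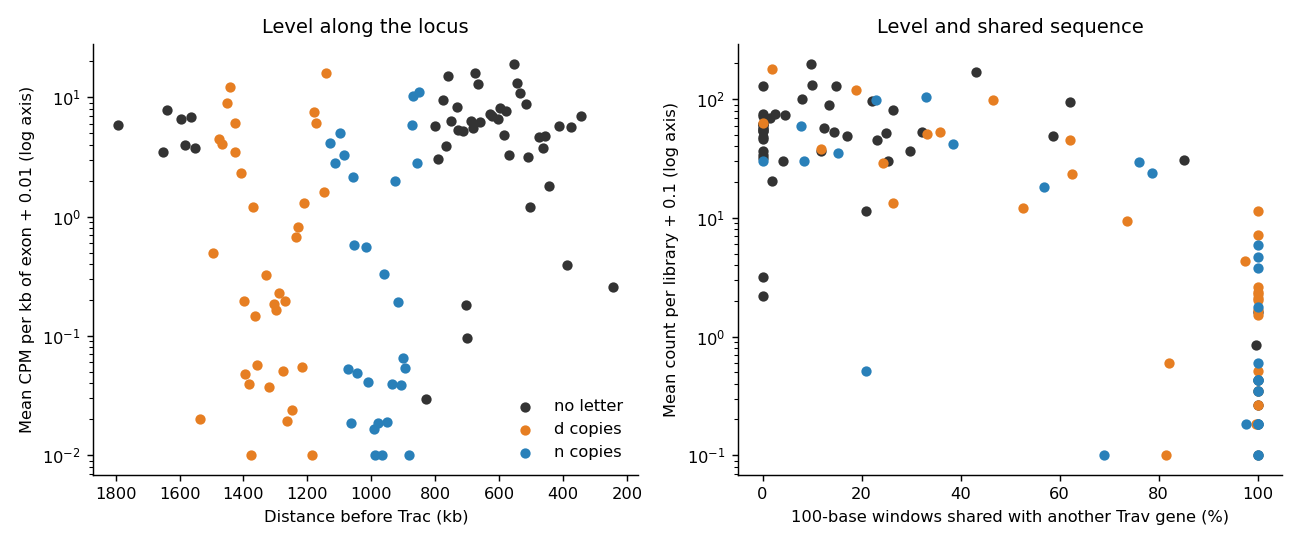
Level of the 108 Trav segments against their distance before Trac in kb (left, mean CPM per kb of exon over 12 libraries, log axis) and against the percentage of their 100-base windows found in another Trav gene (right, mean count per library, log axis). Colours mark copies with no letter, d copies and n copies. Segments with every window shared sit at the bottom right, where 3 of 34 had a mean of at least 5 counts.

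Trav12d-1, Trav13d-3, Trav9n-3, Trav13n-2 and Trav13n-3 had 0 counts in all 12 libraries, which allows up to 3 counts in each. The V exons of Trav12d-1, Trav9n-3 and Trav13n-2 were identical to that of another segment, and those of Trav13d-3 and Trav13n-3 were 99.6% identical to each other. The segments of the invariant NKT chain were in the same position. Trav11 had between 0 and 2 counts per library and Trav11d between 0 and 1, so the invariant NKT chain could not be followed here. Trav1, which carries the chain of MAIT cells, has no close copy (58.3% identity to the nearest segment) and had between 35 and 85 counts. In WT mice its CPM was 2.18, 1.98 and 2.55 with sham and 2.98, 1.67 and 1.48 with Ang II. In miR-214-/- mice it was 2.82, 2.41 and 1.57 with sham and 1.81, 2.78 and 1.57 with Ang II. All 4 groups overlapped for Trav1.

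The segments with the highest mean level per kilobase of exon were Trav3-3, Trav13-1, Trav14d-3-dv8, Trav7-4 and Trav9-4, with 19.2, 16.1, 15.9, 15.1 and 13.1 CPM per kb. By CPM alone, not scaled to length, Trav14-1 took the place of Trav9-4. Trav3-3 was the segment with the most counts in 8 of 12 libraries, and its share of all Trav counts was at most 6.37%, in WT Ang II library 1. No segment dominated any library, since the 10 segments with the most counts held between 33.1% and 42.5% of the Trav counts. The largest families were Trav7 with a mean of 14.2% of the Trav counts over its 13 segments, Trav14 with 13.4% over 9 and Trav9 with 10.2% over 10.

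Summed over the 108 segments, the level in CPM was 178, 164 and 179 in WT sham and 147, 129 and 131 in WT Ang II. In miR-214-/- mice it was 167, 181 and 151 in sham and 147, 181 and 183 in Ang II. The 3 WT Ang II libraries were below the 3 WT sham libraries, while in miR-214-/- sham and Ang II overlapped. The WT means were 174 ± 8.6 CPM with sham and 135 ± 9.71 with Ang II, and the miR-214-/- means 167 ± 14.6 and 170 ± 20.2 (SD, n = 3). As a score over the segments, the sum was not tested.

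Trac, the constant region that every alpha chain carries, was also at its lowest in WT Ang II. Its level in WT was 497 ± 15.2 CPM with sham and 385 ± 13.2 with Ang II, and in miR-214-/- 460 ± 21.3 and 499.8 ± 75.0 (SD, n = 3). In WT, Trac fell under Ang II by 0.35 ± 0.065 (SE) on the log2 scale, with an adjusted p of 0.0147 (edgeR), and its fall was short of the 1 log2 unit that a call asked for. The ratio of Trav counts to Trac counts was 0.35 ± 0.0149 with sham and 0.352 ± 0.0157 with Ang II in WT, and 0.362 ± 0.0231 and 0.342 ± 0.0126 in miR-214-/- (SD, n = 3). These 4 ranges overlapped, and over all 12 libraries the ratio was between 0.33 and 0.388.

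**Figure D2:**
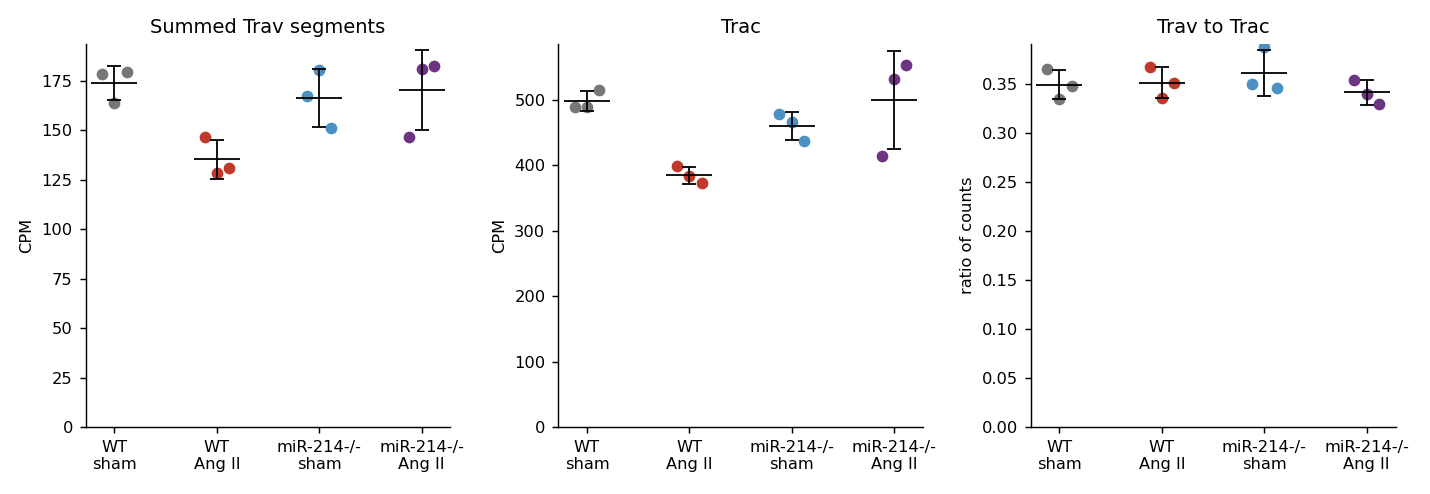
Summed Trav CPM (left), Trac CPM (middle) and the ratio of Trav counts to Trac counts (right) by group. Points are single libraries, and the black bar and whiskers are the mean and SD of 3. The 3 WT Ang II libraries sit below the 3 WT sham libraries for both levels, and the ratio is between 0.33 and 0.388 in all 12 libraries.

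Markers of T cells and of other cell types were summed per library. The summed level of 8 T cell markers was between 3290 and 3940 CPM in WT sham and between 2160 and 2690 in WT Ang II, and in miR-214-/- between 2990 and 3490 with sham and between 2560 and 3480 with Ang II. None of the 8 was at 0. The 8 red-cell precursor markers together were between 302 and 489 CPM in WT sham and between 717 and 5130 in WT Ang II, and the 7 neutrophil markers between 185 and 230 and between 1030 and 3130. In miR-214-/- the red-cell markers were between 267 and 390 CPM in sham and between 436 and 4330 in Ang II, and the neutrophil markers between 216 and 890 and between 533 and 2920. The 5 markers of macrophages and monocytes were between 273 and 409 CPM in WT sham and 480 and 1860 in WT Ang II, and in miR-214-/- between 338 and 657 with sham and between 591 and 1160 with Ang II. The 4 genes of cell division were between 205 and 251 CPM in WT sham and between 1010 and 1130 in WT Ang II, and in miR-214-/- between 280 and 476 with sham and between 469 and 876 with Ang II. The 5 NK cell markers were between 153 and 183 CPM in WT sham and between 88.2 and 143 in WT Ang II, and in miR-214-/- between 125 and 146 with sham and between 118 and 145 with Ang II. As with the T cell markers, every WT Ang II library was below every WT sham library, and the miR-214-/- groups overlapped. The 6 B cell markers were between 62.2 and 322 CPM in WT sham, 108 and 160 in WT Ang II, 51.4 and 93.7 in miR-214-/- sham and 53.7 and 409 in miR-214-/- Ang II. The 5 markers of NKT and MAIT cells were in the same order between 367 and 460, 293 and 397, 340 and 425, and 286 and 394 CPM, and the 6 of gamma-delta T cells between 67.5 and 83.7, 56.4 and 80, 64.9 and 72.5, and 55.9 and 65.7 CPM. The part of these other cells in the lower Trav level of WT Ang II was not tested.

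Before the tests of single segments, the libraries were compared segment by segment, because 5 of them stood apart from the others of their groups. Among the 67 segments with a median of at least 5 counts over the libraries, 7 libraries had none at 1 count or less. WT Ang II library 1 and miR-214-/- sham library 2 both lacked Trav7n-4, Trav13n-1, Trav6-7-dv9 and Trav7-6, and miR-214-/- sham library 2 also had 1 count of Trav7-5. WT sham library 2 and miR-214-/- Ang II libraries 2 and 3 instead had 1 count or less of Trav4d-4, Trav6d-7 and Trav14n-1. With the groups in the order sham then Ang II, first for WT and then for miR-214-/-, the counts of Trav6-7-dv9 were 26, 50 and 24, then 0, 19 and 23, then 43, 0 and 26, then 31, 64 and 54. In the same order the counts of Trav6d-7 were 9, 0 and 10, then 29, 9 and 14, then 11, 27 and 19, then 8, 1 and 0. Where Trav6-7-dv9 was at 0, Trav6d-7 was at its highest, and where Trav6d-7 was at 1 or less, Trav6-7-dv9 had its 3 highest counts. Every window of Trav4d-4, Trav6d-7 and Trav14n-1 is found in another Trav gene. Their V exons are identical to those of Trav4n-4, Trav6n-7 and Trav14d-1. Low counts of these copies are therefore values for reads that could be placed, not for the use of the segments.

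The pattern ran along the locus rather than through a single pair. In 11 of the 67 segments the libraries had the same order, with WT Ang II library 1 and miR-214-/- sham library 2 below the other 10 and WT sham library 2 and miR-214-/- Ang II libraries 2 and 3 above the other 9. These were Trav7n-4, Trav6n-5, Trav6n-6, Trav8-1, Trav10, Trav7-5, Trav12-2, Trav14-2, Trav6-7-dv9, Trav16 and Trav14-3. In 5 others, Trav2, Trav8d-1, Trav4d-4, Trav6d-7 and Trav14n-1, the order was the reverse. That is 23.9% of the segments, against 6 of 166 other genes that lay within 2 Mb of the segments (3.61%) and 7 of 17538 genes elsewhere (0.0399%), and these counts describe an order that was itself read from the segments.

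Of the nearby genes with this order, the pseudogene Trav4d-2 lies among the segments and had the order in reverse. The rest encode no receptor chain. Ppp1r3e, a subunit that targets a phosphatase to glycogen, starts at position 54872669 and was at 1.65 CPM in WT Ang II library 1 and 1.16 in miR-214-/- sham library 2. It was at 14.3, 15.2 and 16.6 CPM in WT sham library 2 and miR-214-/- Ang II libraries 2 and 3, and between 6.41 and 9.8 in the other 7. Sall2, a zinc finger transcription factor that starts at position 52311172, was at 5.13 and 4.18 CPM, at 10.8, 12.2 and 12.2 CPM, and between 6.32 and 7.69 in the same sets of libraries. Rpgrip1, Dad1 and the antisense gene Gm26782 were the others, and all were singled out after their values were seen. Which S129 or C57 sequence each mouse carried at the locus was not tested. Each group held at least 1 of the 5 libraries, but they were not balanced over the groups. The low ones were in WT Ang II and miR-214-/- sham, and the high ones in WT sham and miR-214-/- Ang II. In segments with this order, it therefore ran the same way as the group differences and the interaction. Comparisons that hold all libraries cannot tell them apart. Leaving the 5 out makes such differences smaller by construction, since the 5 were picked from the Trav counts.

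**Figure D3:**
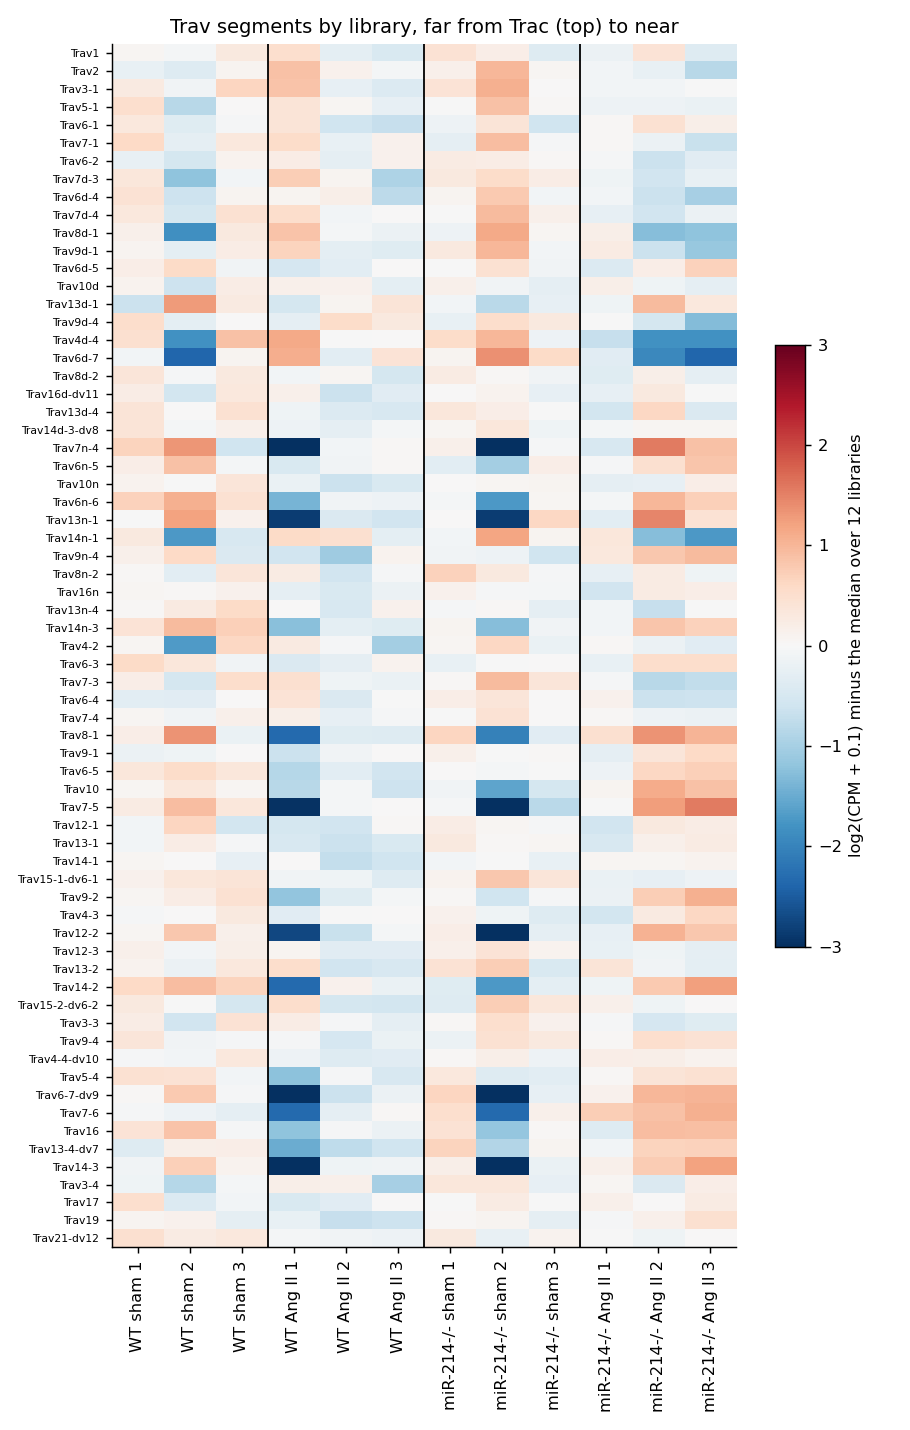
Level of the 67 Trav segments with a mean of at least 5 counts in each of the 12 libraries, as log2(CPM + 0.1) minus the segment's median over libraries (colour, cut at 3 in either direction). Rows run from the segment farthest from Trac to the nearest, and black lines part the groups. WT Ang II library 1 and miR-214-/- sham library 2 share dark blue rows that are red in WT sham library 2 and in miR-214-/- Ang II libraries 2 and 3.

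Some of these libraries also differed in how evenly their Trav counts, from reads that could be placed, were spread over the segments. The effective number of segments, the exponential of the Shannon entropy of the Trav counts, was 47.3 in WT Ang II library 1 and 46.3 in miR-214-/- sham library 2, and between 53.0 and 56.0 in the other 10 libraries. The WT means were 54.5 ± 1.33 with sham and 52.6 ± 4.61 with Ang II, and the miR-214-/- means 52.2 ± 5.1 and 54.2 ± 1.07 (SD, n = 3), with ranges that overlapped. The d copies held 26.2% and 26.5% of the Trav counts in WT Ang II library 1 and miR-214-/- sham library 2. They held 13.6%, 14.1% and 13.4% in WT sham library 2 and miR-214-/- Ang II libraries 2 and 3, and between 18.9% and 21.3% in the other 7. Copies with no letter held between 64.7% and 73.1% over the 12 libraries, and n copies between 8.2% and 16.2%. By group, the d copies held 18.1% ± 3.88 in WT sham and 22.5% ± 3.28 in WT Ang II, and 21.7% ± 4.16 and 15.6% ± 3.28 in miR-214-/- (SD, n = 3), with ranges that overlapped in both genotypes. The 20 Trav pseudogenes together were at 1.79 to 3.25 CPM per library.

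In WT T cells, Ang II against sham asks how the infusion changed the cells when miR-214 is present. Of 16012 genes tested, 1169 were called (7.3%) at an adjusted p under 0.05 and a log2 fold change over 1 in size, of which 47 were lower (0.294%). Of the 64 Trav segments that passed the filter on low counts, 2 were called, Trav14n-3 and Trav6-5, and both fell. The log2 fold change was below 0 in 52 of 64 segments, against 51.6% of all genes, with a median of -0.34 against -0.02 over all genes. In 21 of 64 segments every WT Ang II library was below every WT sham library, against 22% of all genes. Higher without overlap were 0 segments, against 19.1% of all genes. At an unadjusted p under 0.05 in edgeR, 8 of 64 were lower, against 15.8% of all genes, and none was higher, against 19.8%. As shares of the segments, the 21 and the 8 lower ones were 32.8% and 12.5%, the first above and the second below that over all genes.

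Trav14n-3, the n copy of the Trav14-3 set printed above, was at 4.71, 6.82 and 5.78 CPM in WT sham and at 1.40, 2.81 and 2.71 in WT Ang II. All 3 Ang II libraries were lower, and the lowest of them was library 1, which lacked the other segments. The fall was 1.30 ± 0.304 on the log2 scale (SE; adjusted p = 0.029, edgeR quasi-likelihood test). With WT sham library 2 and WT Ang II library 1 left out, the log2 fold change was -0.88 with an adjusted p of 0.0569, which ended the call, an alternative chosen after seeing the data. Its relatives Trav14d-3-dv8 and Trav14-3 were also lower in WT Ang II without overlap, and neither was called. Whether the copies differed in the size of their fall was not tested. Trav14d-3-dv8 was at 9.15, 6.74 and 7.87 CPM in WT sham and 6.35, 5.84 and 6.69 in WT Ang II. Its log2 fold change was -0.31 with an adjusted p of 0.246 (edgeR). Trav14-3 was at 1.57, 2.86 and 1.82 CPM and at 0.070, 1.53 and 1.57, a log2 fold change of -0.97 ± 0.783 (SE) with an adjusted p of 0.409.

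Trav6-5 was at 2.31, 2.70 and 2.32 CPM in WT sham and at 0.95, 1.43 and 1.19 in WT Ang II. The groups did not overlap, and the SD within each was 0.220 and 0.239 CPM. The fall was 1.02 ± 0.235 on the log2 scale (SE; adjusted p = 0.0274, edgeR). Without the same 2 libraries the log2 fold change was -0.78 and the adjusted p 0.119. In that fit 0 of 63 segments were called, and 1454 of 16138 genes, of which 88 were lower. The copies of Trav6-5 had fewer counts, with 29, 42 and 22 in WT sham and 21, 24 and 26 in WT Ang II for Trav6d-5, and 23, 42 and 18 and 17, 22 and 21 for Trav6n-5, and neither was called. The count of segments called was also 0 without WT sham library 1, 2 or 3, without WT Ang II library 3, and 1 without WT Ang II library 1. In the same order, the genes called in all were 564 of 16638, 930 of 16469, 605 of 16807, 599 of 16611 and 1338 of 16431. With all libraries they were 1169 of 16012.

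Among segments without overlap and with a mean log2 CPM over 1, Trav14-2 and Trav12-2 followed Trav14n-3 in WT. Trav14-2 was at 3.88, 4.92 and 4.05 CPM in WT sham and 0.421, 2.78 and 2.20 in WT Ang II, a log2 fold change of -1.23 ± 0.567 (SE) with an adjusted p of 0.166. Trav12-2 was at 2.79, 4.80 and 3.00 CPM and 0.316, 1.64 and 2.58, a log2 fold change of -1.21 ± 0.632 with an adjusted p of 0.213. Neither passed the test. In both, the lowest value by far was that of WT Ang II library 1. Without that library the log2 fold changes were -0.76 for Trav14-2 and -0.73 for Trav12-2, and over all libraries left out in turn they were between -1.70 and -0.76 and between -1.83 and -0.73. For Trav12-2 the lower end came without WT Ang II library 3. Without WT sham library 2 and WT Ang II library 1 together they were -0.62 and -0.41.

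**Figure D4:**
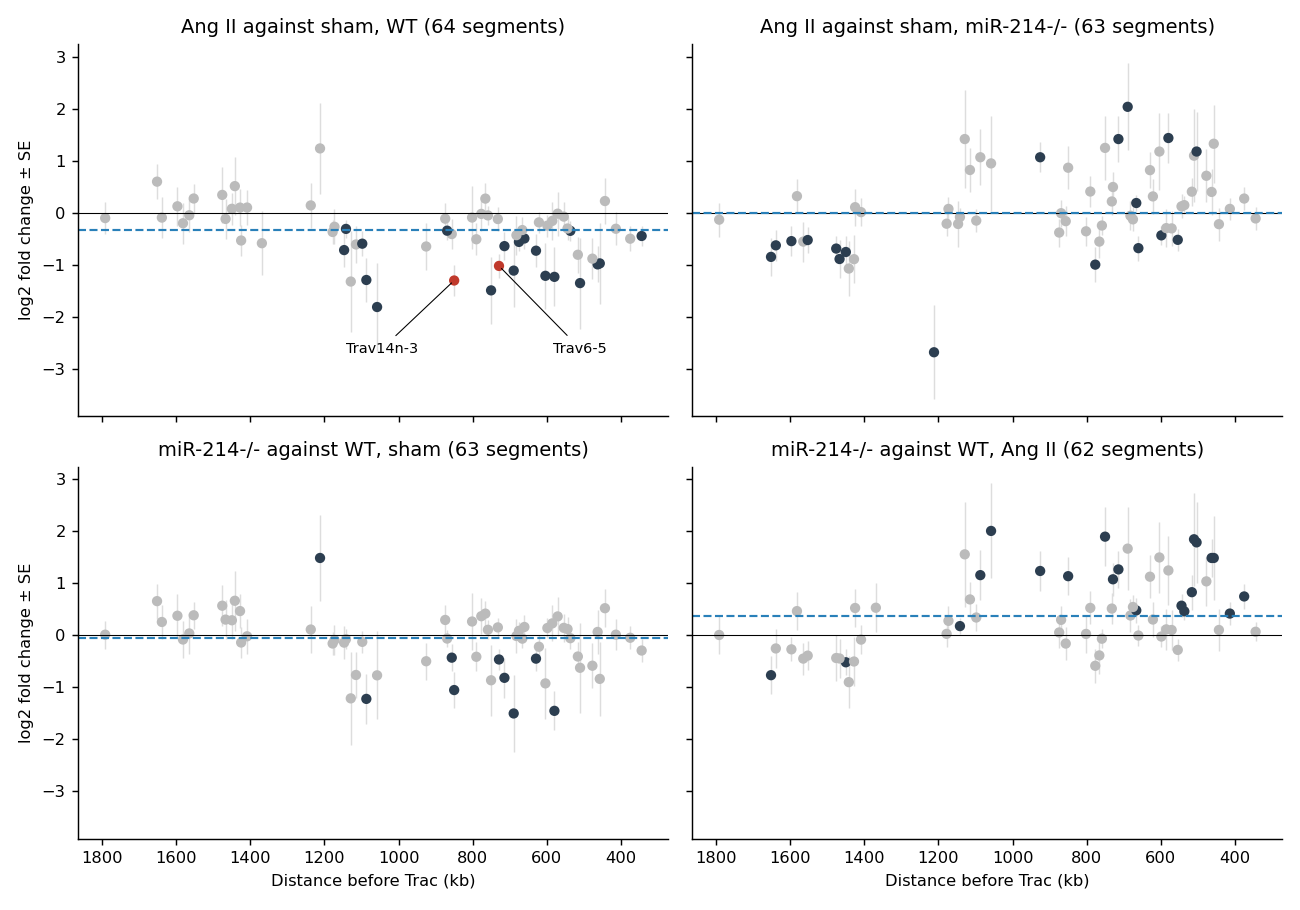
Log2 fold change of each Trav segment tested, with its standard error, against its distance before Trac in kb, for the 4 comparisons of groups. Red points were called, dark points had no overlap between the groups, grey points overlapped, and the dashed blue line is the median over the segments. In WT the median was -0.34 and Trav14n-3 and Trav6-5 were called, and no segment was called in the other 3 comparisons.

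In miR-214-/- T cells, none of 15937 genes was called between Ang II and sham by edgeR (0%), and 51 of 28376 were by DESeq2 (0.18%). The segments called were 0 of 63 tested by edgeR and 0 of 98 by DESeq2. At an unadjusted p under 0.05 in edgeR, 4 of 63 were higher, against 5.82% of all genes, and 8 of 63 lower, against 6.34%. Without overlap, 6 segments were higher (9.52%, against 8.83% of all genes) and 12 lower (19%, against 10.5% of all genes). The median over the segments was -0.01 and that over all genes 0.03.

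Among segments without overlap and with a mean log2 CPM over 1, those with the largest rises in miR-214-/- carried the order of the libraries described above. Trav7-5 was at 1.74, 0.046 and 0.966 CPM in miR-214-/- sham and 1.78, 4.34 and 5.41 in Ang II, a log2 fold change of 2.04 ± 0.84 (SE) with an adjusted p of 0.402. Trav14-2 was at 1.95, 0.696 and 2.04 CPM and 2.29, 4.45 and 6.06, a log2 fold change of 1.44 ± 0.49 with an adjusted p of 0.339. Trav10 was at 1.87, 0.603 and 1.36 CPM and 2.13, 4.45 and 3.75, a log2 fold change of 1.42 ± 0.448 with an adjusted p of 0.319. For these 3 the miR-214-/- sham library 2 was the lowest and the Ang II libraries 2 and 3 were the highest. Without sham library 2 and Ang II libraries 2 and 3, which leaves a single Ang II library assumed to vary like the others, the log2 fold changes were 0.39, 0.19 and 0.40. With a single library left out they were between 1.5 and 2.84 for Trav7-5, 1.09 and 1.73 for Trav14-2, and 1.09 and 1.79 for Trav10.

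On the other side, and at the same level limit, Trav7-3, Trav7d-4 and Trav15-1-dv6-1 were lower under Ang II in miR-214-/- without overlap. Below that limit Trav6d-7, whose counts are given above, had a larger difference, with a log2 fold change of -2.68 ± 0.905 (SE) and an adjusted p of 0.331. Every window of Trav6d-7 is shared, so its counts cover only the reads that could be placed. Trav7-3 was at 3.61, 6.92 and 4.58 CPM in sham and 3.47, 1.95 and 2.09 in Ang II, a log2 fold change of -0.99 ± 0.338 (SE, adjusted p = 0.339, edgeR). The log2 fold changes of Trav7d-4 and Trav15-1-dv6-1 were -0.75 and -0.68, with adjusted p-values of 0.394 and 0.353. None of the 3 passed the test. Without miR-214-/- sham library 2 alone the log2 fold changes of Trav7-3, Trav7d-4 and Trav15-1-dv6-1 were -0.70, -0.40 and -0.47, the smallest of all libraries left out in turn, and the others reached -1.31, -0.94 and -0.83. Without sham library 2 and Ang II libraries 2 and 3 together, which again leaves a single Ang II library, they were -0.24, -0.32 and -0.48.

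Between genotypes in sham mice, 3 of 15913 genes were called (0.0189%) and none of 63 segments by edgeR. At an unadjusted p under 0.05, 3 segments were lower in miR-214-/-, against 2.41% of all genes, and 0 higher, against 4.26%. DESeq2 called 45 of 28204 genes (0.16%) and 1 of 99 segments, Trav14-2. In 8 of 63 segments (12.7%) every miR-214-/- library was lower, against 4.79% of all genes. The median over the segments was -0.04. Among segments with a mean log2 CPM over 1, Trav14-2 had the largest fall without overlap, with a log2 fold change of -1.45 ± 0.376 (SE) and an adjusted p of 0.701. Trav14n-3 and Trav6-5 came next, at -1.05 ± 0.352 and -0.46 ± 0.201, with adjusted p-values of 0.701 and 0.758 (edgeR). Trav14-2 carried the order of the libraries described above, in which WT sham library 2 was high and miR-214-/- sham library 2 low. With a single library left out, its log2 fold change was between -1.68 and -1.10. For Trav14n-3 and Trav6-5 the ranges were -1.31 to -0.73 and -0.50 to -0.38. Without the libraries that stood apart, edgeR called 0 of 64 segments and 8 of 15980 genes.

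Between genotypes under Ang II, none of 16215 genes was called by edgeR (0%) and 21 of 28617 were by DESeq2 (0.0734%). The segments called were 0 of 62 tested by edgeR and 0 of 97 by DESeq2. At an unadjusted p under 0.05 in edgeR, 12 of 62 were higher in miR-214-/-, against 4.4% of all genes, and 0 lower, against 4.16%. In 18 of 62 segments (29%) every miR-214-/- library was higher than every WT library, against 8.02% of all genes, and the median over the segments was 0.36 against 0.00 over all genes. This comparison uses the same WT Ang II libraries as the one in WT mice. Among segments with a mean log2 CPM over 1 and no overlap, Trav8-1 was at 0.246, 1.25 and 1.23 CPM in WT Ang II and 2.33, 4.34 and 3.45 in miR-214-/- Ang II, a log2 fold change of 1.90 ± 0.561 (SE) with an adjusted p of 0.569. Trav14-3 and Trav10 were higher by 1.49 ± 0.808 and 1.27 ± 0.351 on the log2 scale, with adjusted p-values of 0.582 and 0.569. Trav7d-4 was lower without overlap, at -0.52 ± 0.248 with an adjusted p of 0.571. Without the libraries that stood apart, which leaves a single miR-214-/- Ang II library, the log2 fold changes of Trav8-1, Trav14-3 and Trav10 were 0.94, 0.32 and 0.44.

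The interaction asks whether the response to Ang II differed between genotypes. Of 16770 genes tested, 1 passed (0.00596%), and 0 of 66 segments did by edgeR. At an unadjusted p under 0.05, 16 of 66 segments had a higher response in miR-214-/-, against 6.55% of all genes, and 3 a lower one, against 8.26%. The segments with the smallest p-values were Trav6-5, Trav14n-3 and Trav10, with differences in log2 fold change of 1.54 ± 0.361, 2.19 ± 0.547 and 2.08 ± 0.554 (SE) and an adjusted p of 0.213 for each. DESeq2 called these 3 and Trav14-2, 4 of 103 segments, and 444 of 30175 genes in all (1.47%). Without miR-214-/- Ang II library 1, edgeR called 4 of 66 segments and 919 of 17172 genes (5.35%). Without the libraries that stood apart, which leaves a single miR-214-/- Ang II library, the differences for Trav6-5, Trav14n-3 and Trav10 were 0.66, 0.83 and 0.78. The median over the 66 segments was 0.38.

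**Figure D5:**
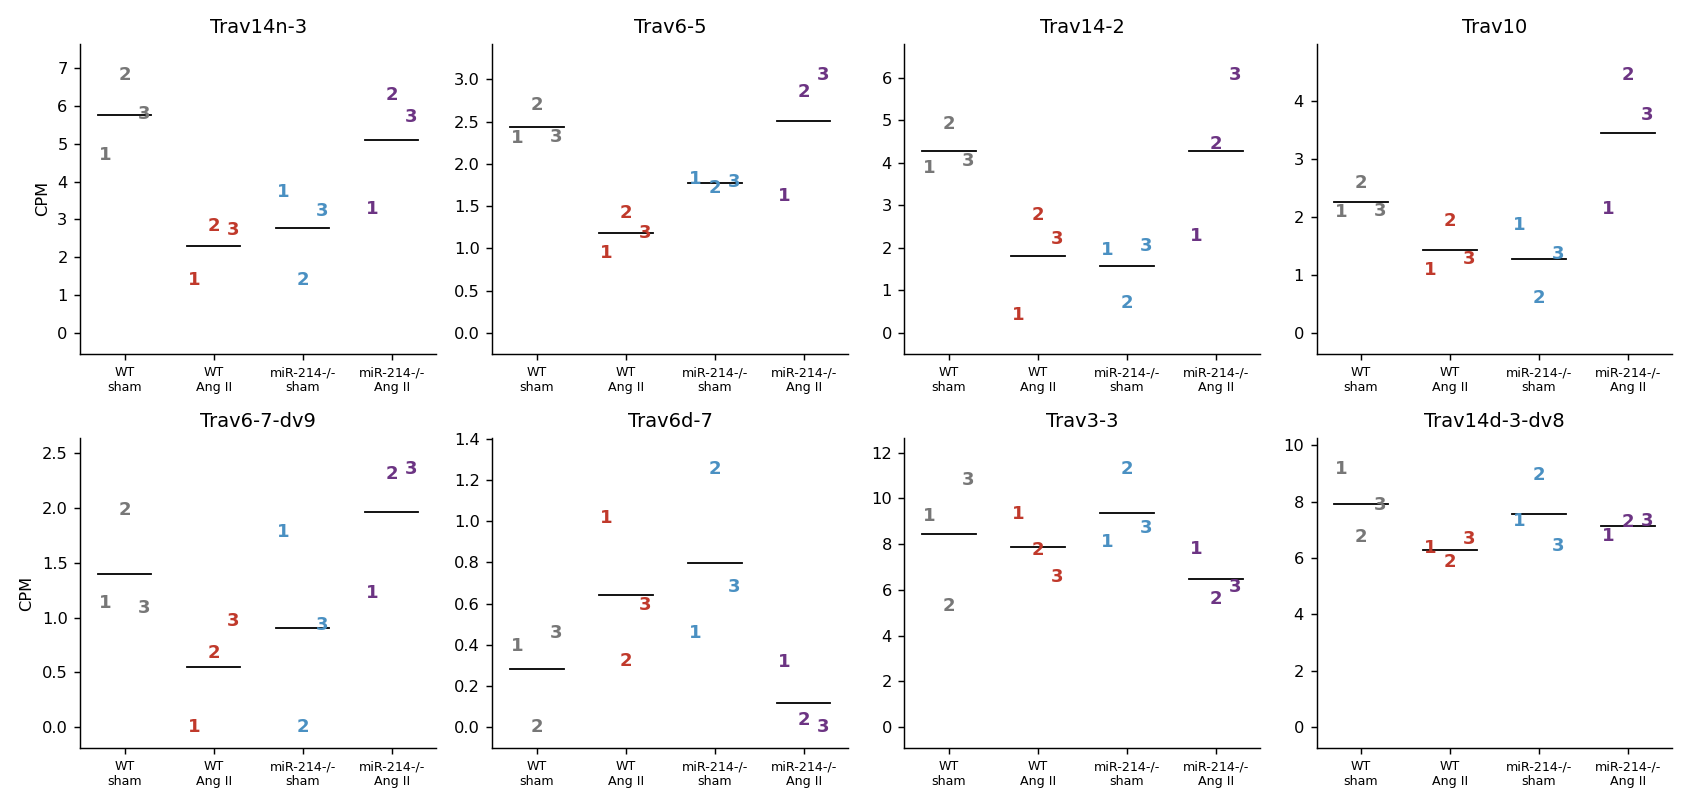
CPM of 8 Trav segments in each library, drawn as the replicate number, with a bar at the mean of 3. Trav14n-3, Trav6-5, Trav14-2 and Trav10 sit lower in WT Ang II than in WT sham, Trav6-7-dv9 and Trav6d-7 are at 0 in different libraries, and Trav3-3 and Trav14d-3-dv8 have high levels. Library 2 of miR-214-/- sham is the lowest of its group for the first 5 segments.

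Of the segments, 10 carry a dv name, and 8 of them had counts enough to be tested in WT. Trav14d-3-dv8 had the highest level of these, at a mean of 7.23 CPM, followed by Trav4-4-dv10 at 3.92. Trav21-dv12, Trav15-1-dv6-1 and Trav16d-dv11 lay between that level and 2.14 CPM. Trav13-4-dv7, Trav15-2-dv6-2 and Trav6-7-dv9 were at 1.46 CPM or less. Trav15d-1-dv6d-1 had at most 2 counts in a library and Trav15d-2-dv6d-2 at most 1, and the V exon of each was identical to that of another segment. None of the 8 tested was called in any comparison. Trdc, the constant region of the delta chain, fell in WT under Ang II by 0.42 ± 0.0985 on the log2 scale (SE; adjusted p = 0.0287, edgeR). In miR-214-/- its log2 fold change was -0.35 ± 0.0822 with an adjusted p of 0.266, and the interaction was 0.09 with an adjusted p of 0.72.

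Other genes of the receptor were also lower in WT under Ang II. Of all 16012 genes, 1131 were lower at an adjusted p under 0.05 (7.06%), whatever the size of the change. Of 24 genes of the T cell receptor and its signalling, 22 were tested, 14 had an adjusted p under 0.05 under Ang II, all lower, and 0 reached 1 log2 unit and so were called. Among them were the beta chain constant regions Trbc1 and Trbc2, with log2 fold changes of -0.53 ± 0.077 and -0.62 ± 0.0844 (SE) and adjusted p-values of 0.00736 and 0.00604. Cd3e of the CD3 complex and the kinase Lck were at -0.48 ± 0.0868 and -0.55 ± 0.114, with adjusted p-values of 0.0137 and 0.0203. In miR-214-/- none of the list had an adjusted p under 0.05, nor in either comparison of genotypes, nor for the interaction. Traj segments were below 0 in 41 of 41 tested in WT, with a median of -0.61, and 2 had an adjusted p under 0.05. Trbv segments, the variable segments of the beta chain on another chromosome, were below 0 in 20 of 21 in WT, with a median of -0.53, and 13 had an adjusted p under 0.05. In miR-214-/- the medians were -0.09 over Traj and 0.06 over Trbv. For the interaction they were 0.51 and 0.62, with 0 of either passing the test.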

How the data were processed

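T cells from the spleens of 12 mice, 3 per group, were analysed by RNASeq, with 1 library per mouse. The authors trimmed and mapped the reads to GRCm38 with STAR and counted reads that map to 1 place in exons with featureCounts (Subread 1.5.2), and the deposited table holds these raw counts per gene, not normalized. How strand was set, and which annotation was used, is not given in the sources used here. Reads that fit more than 1 place were not counted, which lowers copied segments most. Symbols, biotypes and positions were taken from GENCODE mouse release 21 (GRCm38), which matched 48970 of 49315 identifiers. The columns match the 12 samples.

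Counts were tested in R 4.3.3 with edgeR 4.0.16 (filterByExpr on the groups compared, TMM scaling, quasi-likelihood test) with Benjamini-Hochberg adjustment over all genes tested. Calls required an adjusted p under 0.05 with a log2 fold change over 1 in size, and for the interaction the adjusted p alone. DESeq2 1.42.0, other scalings, filters and models, and leaving out libraries were alternatives. CPM values were scaled with TMM over all 12 libraries, and CPM per kb divides by exon length. Each test was checked on simulated data. Figures and summaries used Python 3.11.15.

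Segments were named if called, if among the 5 highest by CPM or per kb, if among the 3 largest rises or falls without overlap at a mean log2 CPM over 1, if among the 3 smallest interaction p-values, or if part of the invariant chains, the dv segments or those at 0. The segments and lists were chosen with earlier results of these data known. A row at 0 allows up to 3 counts, a limit for counting error alone.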

Additional observations from a re-analysis of the deposited data

Results flagged for a closer look

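For 3 segments every Ang II library was below every sham library in WT and above every sham library in miR-214-/-. Genes with this pattern were not counted over the whole table, so the 3 cannot be set against a general rate. The difference in log2 fold change between genotypes was 2.08 for Trav10, 3.17 for Trav7-5 and 2.69 for Trav14-2, with adjusted p-values of 0.213, 0.278 and 0.226 in the interaction test of edgeR, so that none passed. In all 3, WT Ang II library 1 and miR-214-/- sham library 2 were the 2 lowest libraries, and WT sham library 2 and miR-214-/- Ang II libraries 2 and 3 were the 3 highest. Without those 5 libraries, the differences were 0.78, 0.73 and 0.86. The 5 were picked from the Trav counts and hold the extremes, so a smaller difference is built in. A single miR-214-/- Ang II library is then left, and these values decide nothing.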

How the results depend on the processing

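The 2 calls in WT were kept with RLE scaling, a minimum of 10 counts in every library, the other quasi-likelihood setting, DESeq2, 1 fit over all groups and the replicate block. The count was 1 with library totals or no filter, 0 when scaled to the summed Trav counts, between 0 and 2 when a library was left out, and 0 without the libraries that stand apart. The genes called in all were 1192 of 16012, 1393 of 28524 and 1924 of 16012 in the first 3 of these. They were between 564 and 1338 when a library was left out, and 1454 of 16138 without the libraries that stand apart. The labels do not say whether the same replicate numbers mark pairs. Of 18 same-number pairs, 7 had a correlation over 0.1 (lowest -0.56), which cannot settle it with 3 libraries per group. With the replicate block the counts were 2 in WT and 0 elsewhere. DESeq2 called 1 of 99 segments between genotypes in sham and 4 of 103 for the interaction, and edgeR called between 0 and 4 for the interaction when a library was left out, with 4 of 66 without miR-214-/- Ang II library 1, where 919 of 17172 genes were called. The cause was not tested.

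Medians moved by more than the spread of a library's median (log2) in 21 of 85 alternatives. Scaled to the Trav sum, they were -0.00566 in WT, 0.0249 between genotypes under Ang II and -0.0211 for the interaction, since that scaling removes the shared fall. With 10 counts in every library they were -0.129 in miR-214-/-, 0.175 between genotypes under Ang II and 0.293 for the interaction, and for genotypes under Ang II 0.103 with DESeq2 and 0.118 with no filter. Without the libraries that stand apart they were -0.448 in WT, -0.145 in miR-214-/-, -0.166 between genotypes in sham and 0.172 under Ang II. The values in miR-214-/- and under Ang II then rest on a single miR-214-/- Ang II library. Leaving out 1 library gave -0.423 to -0.262 in WT, -0.105 to 0.0649 in miR-214-/-, -0.123 to 0.0691 and 0.237 to 0.431 between genotypes in sham and under Ang II, and 0.282 to 0.516 for the interaction. The log2 difference between groups in the ratio of Trav to Trac counts was 0.00891 in WT, 0.0485 between genotypes in sham and -0.0422 under Ang II. Without the libraries that stand apart, the log2 ratio of the summed CPM was -0.462 in WT and 0.178 between genotypes under Ang II, the latter with a single miR-214-/- Ang II library. With about 3095 to 5013 Trav counts per library, segments under the filter could not be tested.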
